A study of Homo sapiens with 4 samples.

Results

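ATP-binding cassette (ABC) transporter genes were examined in HepG2, a cell line from a human hepatocellular carcinoma, after melatonin or its solvent. The genes were taken by name. A gene was a member when it was protein-coding and its symbol ran from ABCA to ABCG followed by a number, with 1 family member left out, and this gave 44 genes among 19847 protein-coding genes and 58302 genes in all. The cells were of wild-type genotype in all groups and received either 1 mM melatonin or DMSO, and mRNA was sequenced after 24 h and after 48 h. Each of the 4 conditions is 1 library, so there was no replicate check of any difference, and every interval given here covers counting error only. Levels are given as FPKM, the sequenced fragments of a gene divided by its length and by the size of the library, so that one gene can be set beside another.

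ABC proteins bind and hydrolyse ATP on paired nucleotide-binding domains and, in most members, use that energy to move a substrate across a membrane through transmembrane domains. In the liver they carry bile components, cholesterol, phospholipids, conjugated waste and drugs out of the hepatocyte. Other members serve mitochondria, lysosomes and peroxisomes. The ABCE and ABCF members have no transmembrane domains and act at the ribosome or in translation. HepG2 keeps many genes of hepatocytes, and several ABC exporters are known for their part in the resistance of tumours to drugs.

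The number of reads behind each FPKM could be recovered, and each library had 21616676 to 23086025 reads on genes. ABC genes held 43832 to 49332 of them, or 0.198% to 0.214%. The mitochondrial genome took 9.77% to 19.96% of the reads and differed most between the DMSO libraries. All 9 hepatocyte markers, such as ALB and HNF4A, had an FPKM of at least 1 in every library, with a summed FPKM of 7413 to 9381. The 4 leukocyte markers summed to an FPKM of 0.00589 to 0.110, with CD3E and MS4A1 at 0, and the 3 endothelial markers summed to 0.543 to 1.18. The 5 fibroblast and stellate markers summed to 4.05 to 7.63. Of these, ACTA2 had an FPKM of 2.11 to 3.81 and PDGFRB of 0.774 to 4.33, while COL1A1 stayed below 1 and COL3A1 and DCN had 0 reads. Of the 3 biliary markers KRT19 and SOX9 were expressed while KRT7 stayed below an FPKM of 1. In bulk RNA of this kind, fewer cells of a type and less RNA per cell cannot be told apart.

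A majority of the ABC genes were expressed. An FPKM of at least 1 in any library was reached by 28 of the 44 genes, and 7 of them were at 10 or more in every library, among them ABCC2, ABCF1, ABCC1, ABCB1, ABCE1 and ABCF2. ABCC2, the canalicular exporter of bilirubin glucuronide and other conjugates, was the highest member in each library and alone held 15.2% to 22.6% of the reads of the family. The lowest of the 28 were ABCB9, ABCA5, ABCB8 and ABCB6, each with an FPKM under 2 in at least 1 library. The other 16 genes stayed below an FPKM of 1 throughout and entered no count of differences.

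**Figure D1:**
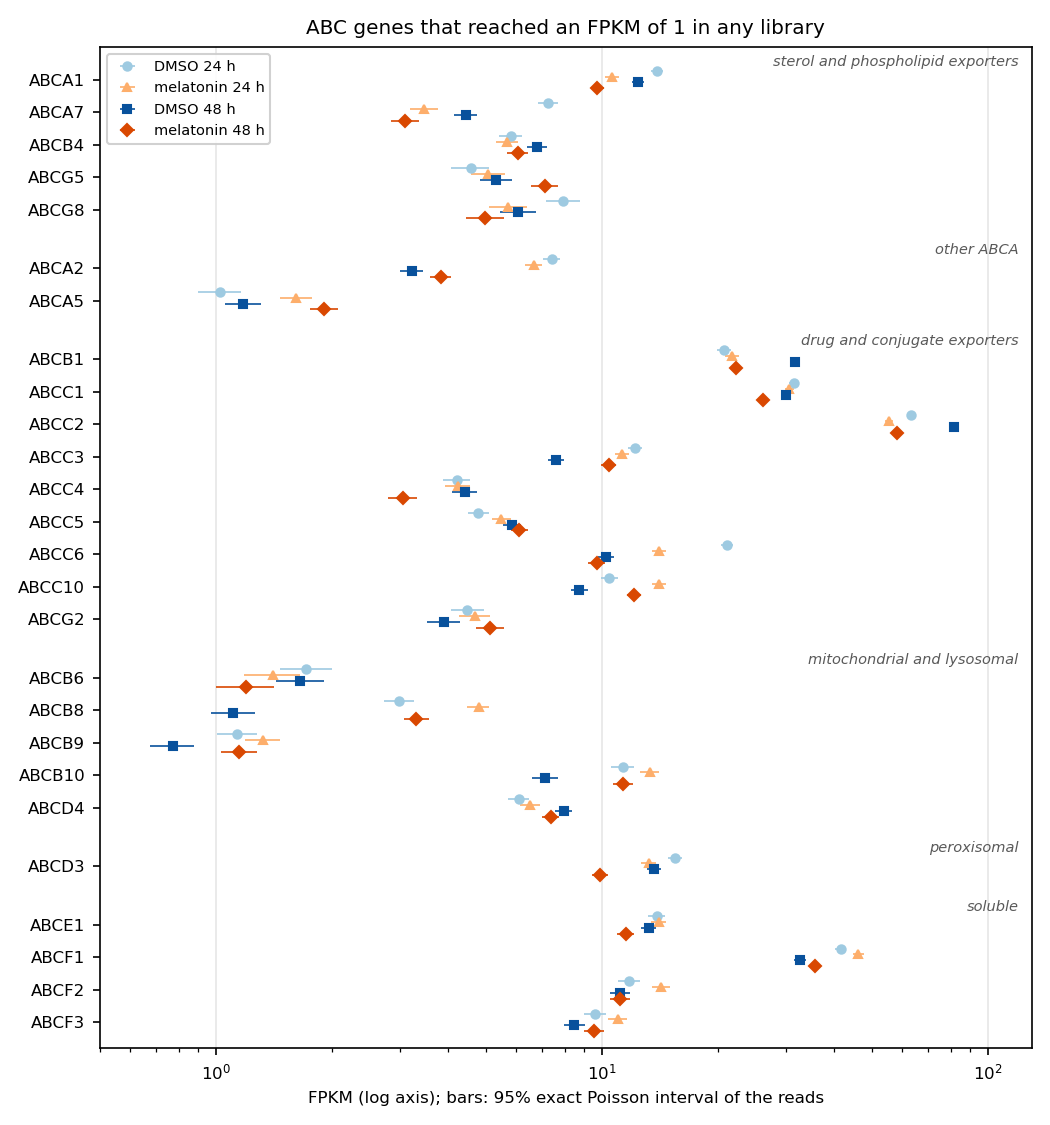
FPKM (log axis) of 26 of the 28 ABC genes that reached an FPKM of 1 in any library, grouped by role, with 1 point per library and bars for the 95% exact Poisson interval of the reads. ABCC2 lies furthest to the right, at 55.4 to 81.6, and the points of ABCB8 spread from 1.11 to 4.79.

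The comparison of melatonin with DMSO asks which of these genes stood at another level under the treatment. Protein-coding genes entered the test with an FPKM of 1 or more in either of the libraries compared, and were called when log2((FPKM + 1)/(FPKM + 1)) reached 1 or -1, a 2-fold difference. At 24 h 0 of the 28 tested ABC genes were called, against 0.191% of all tested protein-coding genes called higher and 0.439% called lower. At 48 h 1 ABC gene was called higher, ABCB8, and 0 were called lower, against 1.03% and 1.36% of all tested protein-coding genes. The median log2 fold change of the ABC genes was 0.01 at 24 h, beside 0.04 over all tested protein-coding genes, and -0.04 at 48 h, beside -0.01.

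Smaller differences could be set against counting error through the exact 95% interval of the ratio of reads between libraries. At 24 h the interval lay above 1 for 8 of 28 ABC genes (28.6%, with 34.5% among all tested protein-coding genes) and below 1 for 9 (32.1%, with 23.2%). At 48 h it lay above 1 for 11 (39.3%, with 34.0%) and below 1 for 13 (46.4%, with 36.5%). The same side at both times was taken by 6 genes above 1 (21.4%, with 19.9%) and by 6 below 1 (21.4%, with 16.1%). Over 28 genes these shares are a description, and nothing particular to the family is read from them. An interval that excludes 1 says that a pair of libraries differed beyond counting error and does not say that the treatments did.

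**Figure D2:**
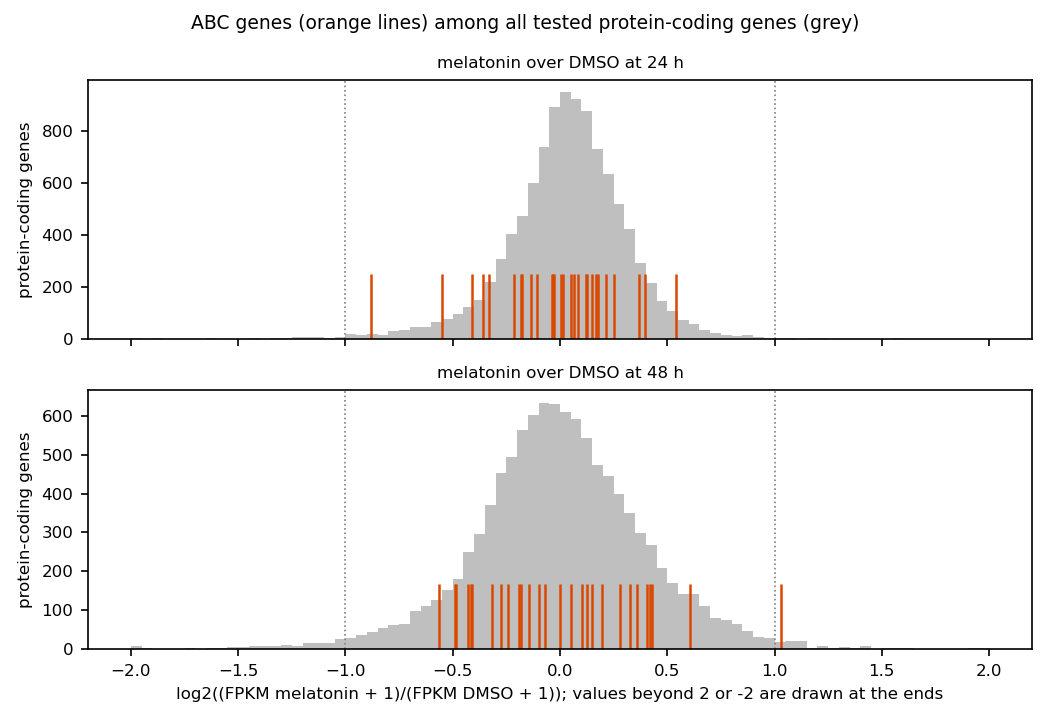
Number of tested protein-coding genes (grey) by log2((FPKM melatonin + 1)/(FPKM DMSO + 1)) at 24 h (top) and 48 h (bottom), with an orange line for each of 28 ABC genes and dotted lines at 1 and -1. The outermost orange lines are ABCA7 at 24 h, at -0.88, and ABCB8 at 48 h, which alone passes a dotted line, at 1.03.

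Another scaling shifted the median of all genes. When FPKM was rescaled to TPM, the median of the tested protein-coding genes was 0.20 in place of 0.04 at 24 h and -0.06 in place of -0.01 at 48 h. The direction of the log2 fold change held under FPKM, TPM and both other library sizes for 15 of the 17 ABC genes whose interval excluded 1 at 24 h and for 24 of 24 at 48 h. The exceptions at 24 h were ABCA2 and ABCC3.

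Of 7 exporters of sterols and phospholipids 5 were tested, and 0 were called at 2-fold at either time. The interval lay below 1 for 3 of the 5 at 24 h and for 4 at 48 h, where 23.2% and 36.5% of all tested protein-coding genes did so. It lay above 1 for 0 and 1, with 34.5% and 34.0% among all tested protein-coding genes. ABCA1, which loads cholesterol and phospholipid onto apolipoprotein A-I and so begins the making of HDL, had an FPKM of 13.9 under DMSO and 10.6 under melatonin at 24 h, and of 12.4 and 9.73 at 48 h. Both melatonin libraries were below both DMSO libraries, and the share of all genes in such an order is not given here. The ratio was 0.763 (95% interval 0.722 to 0.805) at 24 h and 0.785 (0.745 to 0.829) at 48 h.

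ABCA7, a close relative of ABCA1 that moves phospholipids and is known for its link to Alzheimer's disease, had the lowest log2 fold change of the family at 24 h. Its FPKM was 7.23 under DMSO and 3.46 under melatonin at 24 h, and 4.44 and 3.09 at 48 h. The plain ratio at 24 h was 0.479 (0.433 to 0.530), while the log2 fold change with 1 added to each FPKM was -0.88 and did not reach -1. At 48 h the ratio was 0.696 (0.624 to 0.775). The DMSO libraries themselves stood apart, with a ratio of 0.614 (0.560 to 0.673) of 48 h over 24 h. ABCB4, the canalicular flippase for phosphatidylcholine, had an FPKM of 5.80 and 5.68 at 24 h and of 6.80 and 6.06 at 48 h, with ratios of 0.979 (0.888 to 1.08) and 0.891 (0.818 to 0.971).

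ABCG5 and ABCG8 are obligate partners, and the pair joins into the exporter that sends cholesterol and plant sterols into bile. Their genes lie head to head on chromosome 2, ABCG5 at chr2:43812472-43838865 on the minus strand and ABCG8 at chr2:43838964-43878466 on the plus strand (hg38), 98 bp apart as the files place them. The RefSeq starts leave the following 131 bases between the genes on GRCh38, printed on the plus strand and shown because both genes run outwards from them. None of the short motifs searched here, which are spelled out with the mitochondrial members, was found in it.
ABCG5 to ABCG8, chr2:43838840-43838970: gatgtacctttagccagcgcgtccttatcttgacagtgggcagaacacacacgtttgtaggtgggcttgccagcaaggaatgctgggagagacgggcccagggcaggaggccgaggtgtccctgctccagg

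At 48 h the partners differed in opposite directions, and at 24 h ABCG8 alone of the pair differed beyond counting error. ABCG5 had an FPKM of 4.57 under DMSO and 5.08 under melatonin at 24 h, and of 5.32 and 7.11 at 48 h. ABCG8 had an FPKM of 7.93 and 5.72 at 24 h, and of 6.07 and 4.99 at 48 h. The ratio of ABCG5 was 1.11 (0.954 to 1.29) at 24 h, an interval that holds 1, and 1.34 (1.18 to 1.52) at 48 h. ABCG8 was lower with melatonin at both times, with ratios of 0.721 (0.619 to 0.839) and 0.821 (0.701 to 0.960). Within each library the FPKM of ABCG8 over that of ABCG5 was 1.74 (1.49 to 2.02) in the DMSO library and 1.13 (0.966 to 1.31) in the melatonin library at 24 h. The 48 h libraries gave 1.14 (0.990 to 1.32) for DMSO and 0.702 (0.608 to 0.808) for melatonin. This quantity does not depend on library size. Under melatonin it was 0.649 (0.522 to 0.806) of its DMSO value at 24 h and 0.615 (0.501 to 0.753) at 48 h, and its intervals in the DMSO libraries did not overlap each other either. ABCG1 and ABCG4, cholesterol exporters of macrophages and brain, had at most 5 reads in any library.

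**Figure D3:**
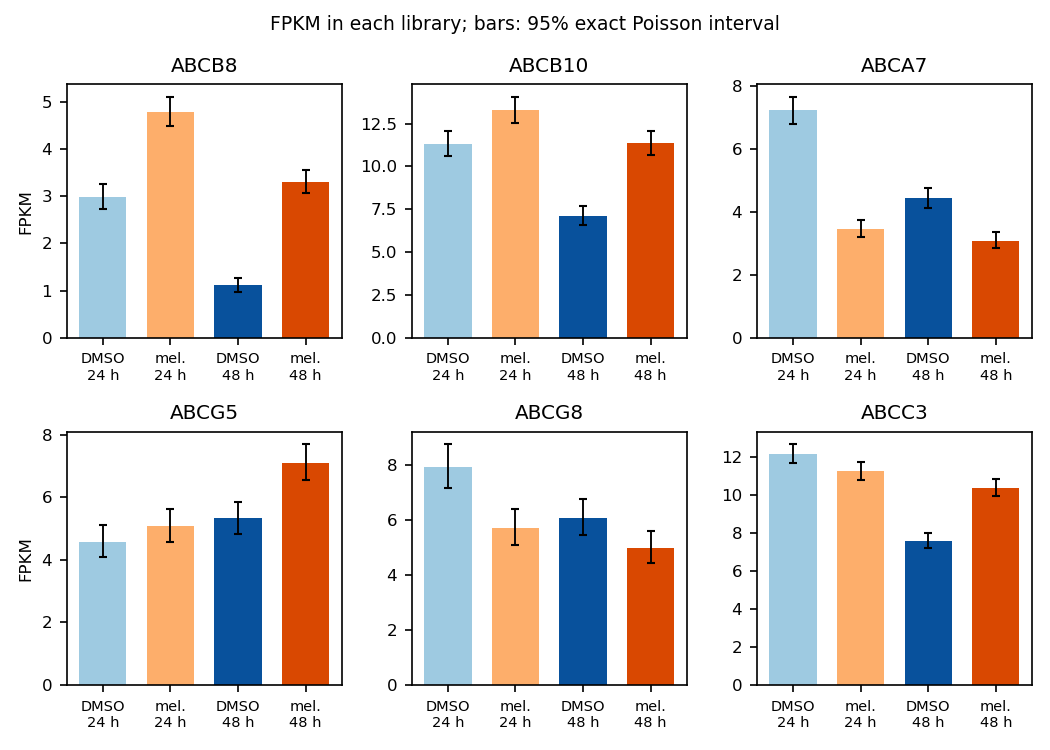
FPKM of ABCB8, ABCB10, ABCA7, ABCG5, ABCG8 and ABCC3 in each of the 4 libraries (bars, from 0), with the 95% exact Poisson interval of the reads. ABCB8, ABCB10 and ABCC3 are lowest with DMSO at 48 h, ABCA7 is highest with DMSO at 24 h, and at 48 h melatonin is above DMSO for ABCG5 and below it for ABCG8.

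Of the other 10 ABCA genes 2 were tested. ABCA2, an endolysosomal protein that takes part in sterol and sphingolipid handling, had an FPKM of 7.40 under DMSO and 6.66 under melatonin at 24 h, and of 3.21 and 3.83 at 48 h. Its log2 fold change was -0.13 at 24 h, where it turned to 0.02 under TPM, and 0.20 at 48 h. Both 48 h libraries were far below both 24 h libraries, with a ratio of 0.434 (0.398 to 0.472) for DMSO and 0.574 (0.529 to 0.622) for melatonin. ABCA5, a lysosomal member, was higher with melatonin at both times. Its FPKM was 1.02 and 1.61 at 24 h, with a ratio of 1.58 (1.35 to 1.85), and 1.17 and 1.91 at 48 h, with a ratio of 1.62 (1.42 to 1.86). Both melatonin libraries were above both DMSO libraries, an order whose share over all genes is not given here. ABCA5 is the end gene of a run of related genes on chromosome 17 (ABCA8, ABCA9, ABCA6, ABCA10 and ABCA5, all on the minus strand), and the other 4 had at most 13 reads in any library. The spans of ABCA10 and ABCA5 overlap at their ends on the same strand, and ABCA10 had 4 reads in the DMSO and 13 in the melatonin library at 24 h, a ratio of 2.94 with an interval of 0.909 to 12.4 that holds 1. At 48 h it had 2 and 10 reads, a ratio of 4.94 with an interval of 1.05 to 46.4.

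Of 12 exporters of drugs and conjugates 9 were tested, with the interval above 1 for 2 and below 1 for 3 at 24 h, and above 1 for 3 and below 1 for 4 at 48 h. Among all tested protein-coding genes the interval lay above 1 for 34.5% and below 1 for 23.2% at 24 h, and for 34.0% and 36.5% at 48 h. ABCC2 had an FPKM of 63.0 under DMSO and 55.4 under melatonin at 24 h, a ratio of 0.879 (0.850 to 0.908), and of 81.6 and 58.1 at 48 h, a ratio of 0.712 (0.692 to 0.733). Its log2 fold change at 24 h, -0.18, shrank to -0.01 under TPM. The high value with DMSO at 48 h set it apart from the other 3 libraries, which lay between 55.4 and 63.0.

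ABCB1, P-glycoprotein, the exporter of many anticancer drugs, showed a like order. Its FPKM was 20.7 under DMSO and 21.7 under melatonin at 24 h, and 31.7 and 22.3 at 48 h. The DMSO library at 48 h was again the one that stood above the rest, and the share of all genes highest there is not given here. The ratio of melatonin over DMSO was 1.05 (0.991 to 1.11) at 24 h and 0.703 (0.670 to 0.738) at 48 h. The ratio of 48 h over 24 h was 1.53 (1.45 to 1.61) under DMSO and 1.03 (0.972 to 1.08) under melatonin. ABCC4, an exporter of cyclic nucleotides and bile acids, had an FPKM of 4.21 and 4.22 at 24 h and of 4.41 and 3.05 at 48 h. There the melatonin library at 48 h was the low one.

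ABCC3, the basolateral exporter of glucuronides, stood the other way at 48 h. Its FPKM was 12.2 under DMSO and 11.3 under melatonin at 24 h, and 7.61 and 10.4 at 48 h. The log2 fold change was -0.11 at 24 h, turning to 0.06 under TPM, and 0.41 at 48 h. ABCG2, the breast cancer resistance protein, an exporter of drugs, urate and porphyrins, had an FPKM of 4.48 and 4.68 at 24 h and of 3.89 and 5.13 at 48 h. ABCC10, an exporter of taxanes and glutathione conjugates, was higher with melatonin at both times, with an FPKM of 10.5 and 14.1 at 24 h and of 8.73 and 12.1 at 48 h. Its ratios were 1.35 (1.26 to 1.44) and 1.38 (1.30 to 1.48). ABCC5, an exporter of cyclic nucleotides, had an FPKM of 4.78 and 5.49 at 24 h and of 5.85 and 6.11 at 48 h. ABCC1, the multidrug resistance protein that exports glutathione conjugates and leukotriene C4, had an FPKM of 31.5 and 30.6 at 24 h and of 30.0 and 26.1 at 48 h.

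ABCC6, a hepatocyte protein needed for the release of ATP and known for its loss in pseudoxanthoma elasticum, had an FPKM of 21.1 under DMSO and 14.1 under melatonin at 24 h, and of 10.2 and 9.69 at 48 h. Its ratio was 0.667 (0.631 to 0.706) at 24 h and 0.947 (0.885 to 1.01) at 48 h. These values are uncertain because ABCC6 has near-identical partial copies on chromosome 16, from which reads may not be told apart. The copy ABCC6P1 had 741 and 1010 reads at 24 h, a ratio of 1.23 (1.12 to 1.36), opposite to ABCC6. With the reads of ABCC6, ABCC6P1 and ABCC6P2 summed, the ratio was 0.775 (0.740 to 0.813) at 24 h and 1.06 (1.00 to 1.12) at 48 h. Of 14 pseudogenes named for ABC genes 9 had 0 reads in every library, and 4 had more than 10 reads in any.

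**Figure D4:**
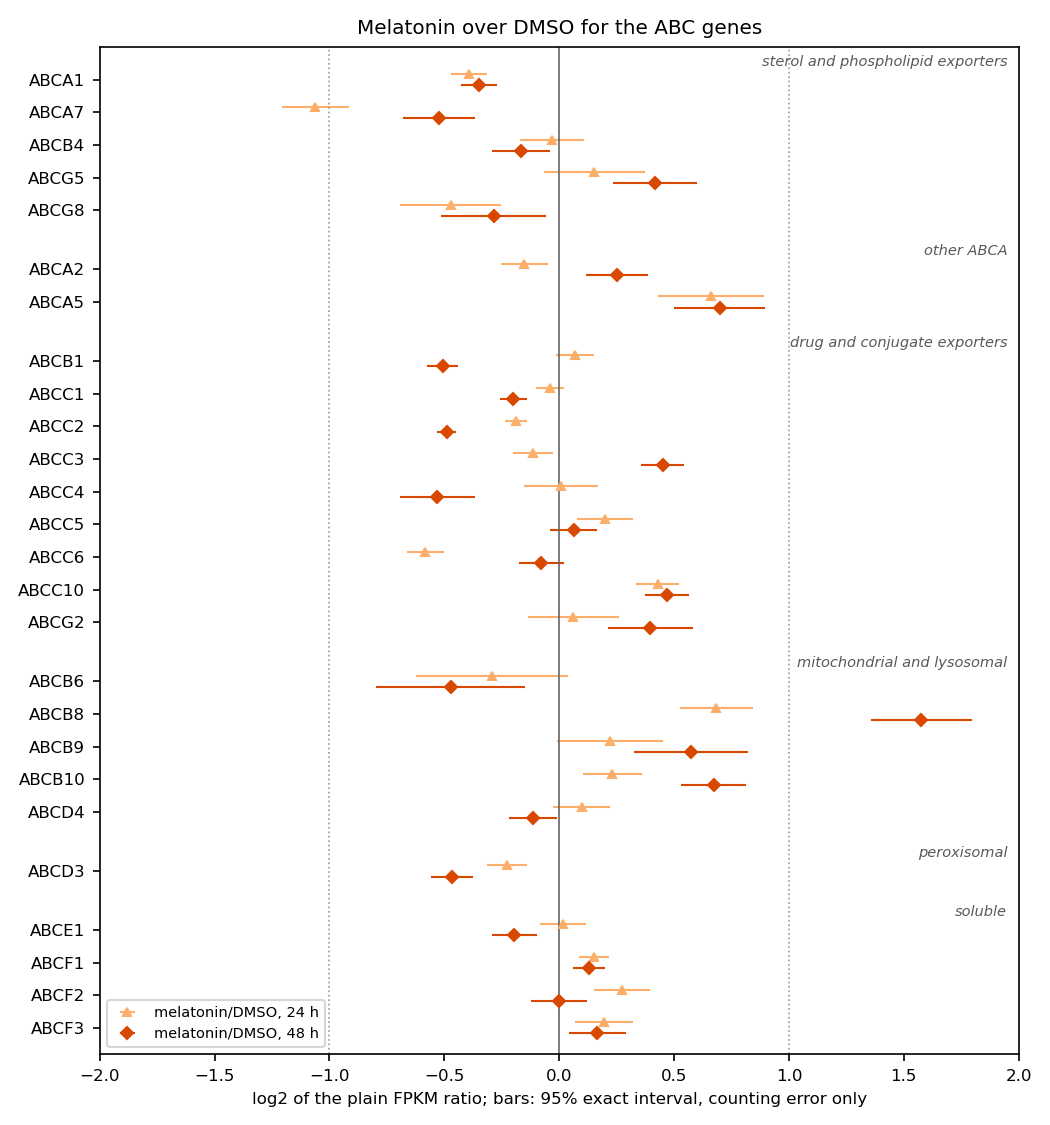
Log2 of the plain FPKM ratio of melatonin over DMSO at 24 h (triangles) and 48 h (diamonds) for 26 of the 28 tested ABC genes by role, with the 95% exact interval of the ratio and dotted lines at 2-fold. ABCB8 at 48 h lies furthest to the right and ABCA7 at 24 h furthest to the left.

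The members of mitochondria and lysosomes were all expressed. All 6 were tested, with the interval above 1 for 2 and below 1 for 0 at 24 h, and above 1 for 3 and below 1 for 2 at 48 h. The shares among all tested protein-coding genes were 34.5% above 1 and 23.2% below 1 at 24 h, and 34.0% and 36.5% at 48 h. ABCB8, a protein of the inner mitochondrial membrane linked to iron export and to a potassium channel there, is ENSG00000197150 in the files and lies at chr7:151028422-151047782 on the plus strand (hg38). Its FPKM was 2.98 under DMSO and 4.79 under melatonin at 24 h, and 1.11 and 3.30 at 48 h, from 511, 907, 227 and 685 reads. Both melatonin libraries were above both DMSO libraries, and the DMSO library at 48 h was the lowest. How many of all genes take such an order is not given here. The intervals of melatonin at 48 h (3.06 to 3.56) and of DMSO at 24 h (2.73 to 3.25) overlapped. ABCB8 was called higher with melatonin than with DMSO at 48 h by the 2-fold rule. The log2 fold change was 1.03, just past the threshold, and the ratio 2.98 (2.56 to 3.48). At 24 h the log2 fold change was 0.54 and the ratio 1.61 (1.44 to 1.79). Between the DMSO libraries the ratio of 48 h over 24 h was 0.372 (0.317 to 0.436), and between the melatonin libraries it was 0.690 (0.624 to 0.763).

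A short antisense gene of 511 bp, AC010973.1, lies inside the start of ABCB8, and no source used here states that reads were counted by strand, so its reads and those of ABCB8 cannot be told apart. At 24 h it had 1 read in the DMSO and 14 in the melatonin library, and at 48 h 2 and 17, few beside those of ABCB8. Its ratio was 12.7 (1.93 to 536) at 24 h and 8.39 (1.99 to 74.9) at 48 h.

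ABCB10, an inner membrane protein of mitochondria needed for haem synthesis in red cells, was also higher with melatonin at both times. Its FPKM was 11.3 and 13.3 at 24 h, with a ratio of 1.17 (1.07 to 1.28), and 7.12 and 11.4 at 48 h, with a ratio of 1.59 (1.45 to 1.76). As for ABCB8, the DMSO library at 48 h was the lowest, and the share of all genes lowest there is not given here. ABCB9, a lysosomal peptide transporter, had an FPKM of 1.14 and 1.32 at 24 h and of 0.772 and 1.15 at 48 h, with the lowest value in the same library. ABCB9 had 225 to 357 reads. OGFOD2, with 18 to 31 reads, and ARL6IP4, with 12 to 37, overlap its span on the other strand. ABCD4, which passes vitamin B12 out of the lysosome, had an FPKM of 6.08 (DMSO) and 6.50 (melatonin) at 24 h and of 7.96 and 7.36 at 48 h. ABCB6, a porphyrin transporter, had an FPKM of 1.72 and 1.40 at 24 h and of 1.66 and 1.19 at 48 h, and nearly its whole span overlaps ATG9A on the same strand, a gene with 3973 to 5331 reads, so its low values are uncertain.

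The promoters of ABCB8, ABCB10 and ABCA5, which were higher with melatonin at both times, and of ABCA1 and ABCD3, which were lower at both, are shown as the 250 bases before the RefSeq start on GRCh38, read along the gene. Capitals mark matches on either strand to the GC box GGGCGG, the E-box CACGTG, the CCAAT box CCAAT, the dioxin response core GCGTG, the antioxidant response core TGACNNNGC and the NRF1 site core (GCGC, any 2 bases, GCGC), and matches may overlap.
ABCB8, chr7:151028200-151028449, plus strand: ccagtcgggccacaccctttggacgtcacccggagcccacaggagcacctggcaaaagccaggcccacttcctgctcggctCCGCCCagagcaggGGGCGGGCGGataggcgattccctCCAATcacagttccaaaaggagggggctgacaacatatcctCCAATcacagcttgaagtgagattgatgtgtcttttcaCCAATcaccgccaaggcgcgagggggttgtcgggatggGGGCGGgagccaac
ABCB10, chr1:229558708-229558957, minus strand: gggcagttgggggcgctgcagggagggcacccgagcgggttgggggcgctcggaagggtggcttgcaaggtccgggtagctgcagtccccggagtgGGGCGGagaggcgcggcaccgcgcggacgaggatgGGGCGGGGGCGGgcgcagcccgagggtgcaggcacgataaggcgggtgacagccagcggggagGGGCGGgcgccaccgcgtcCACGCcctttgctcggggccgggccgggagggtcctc
ABCA5, chr17:69327134-69327383, minus strand: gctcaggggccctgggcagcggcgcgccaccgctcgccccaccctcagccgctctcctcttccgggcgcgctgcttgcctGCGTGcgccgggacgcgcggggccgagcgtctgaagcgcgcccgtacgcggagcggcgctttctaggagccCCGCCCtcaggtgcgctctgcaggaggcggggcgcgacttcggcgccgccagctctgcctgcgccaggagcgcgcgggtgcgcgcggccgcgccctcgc
ABCA1, chr9:104928156-104928405, minus strand: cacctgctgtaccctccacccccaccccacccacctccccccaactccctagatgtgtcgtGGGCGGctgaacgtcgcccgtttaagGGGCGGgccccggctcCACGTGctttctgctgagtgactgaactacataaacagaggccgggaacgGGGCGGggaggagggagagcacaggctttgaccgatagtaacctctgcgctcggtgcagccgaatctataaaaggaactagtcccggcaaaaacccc
ABCD3, chr1:94418139-94418388, plus strand: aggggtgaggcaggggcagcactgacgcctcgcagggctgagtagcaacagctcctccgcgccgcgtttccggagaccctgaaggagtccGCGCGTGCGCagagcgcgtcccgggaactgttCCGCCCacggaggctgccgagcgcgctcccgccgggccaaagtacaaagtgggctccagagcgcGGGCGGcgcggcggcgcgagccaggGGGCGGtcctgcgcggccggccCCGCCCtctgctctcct

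ABCB8 held 4 GC boxes and 3 CCAAT boxes, ABCB10 held 4 GC boxes and 1 dioxin response core, and ABCA5 held 1 GC box and 1 dioxin response core. ABCA1 held 3 GC boxes and 1 E-box, and ABCD3 held 4 GC boxes and an NRF1 site core with a dioxin response core inside it. A GC box was present in 42.6% of all 35093 RefSeq windows, a CCAAT box in 32.0%, a dioxin response core in 32.2%, an antioxidant response core in 10.9%, an NRF1 site core in 7.16% and an E-box in 6.34%. Of 52 windows of 34 ABC genes, 25 held a GC box, 11 a CCAAT box, 21 a dioxin response core, 9 an antioxidant response core, 5 an NRF1 site core and 9 an E-box. A match describes these letters and does not show that a factor binds there.

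Peroxisomal ABC proteins bring fatty acids into the organelle for oxidation. ABCD3, which imports branched-chain fatty acids and bile acid precursors, was lower with melatonin at both times. It had an FPKM of 15.5 under DMSO and 13.2 under melatonin at 24 h, and of 13.6 and 9.87 at 48 h. Both melatonin libraries were below both DMSO libraries, an order whose share over all genes is not given here. The ratios were 0.854 (0.803 to 0.908) and 0.724 (0.679 to 0.772). The intervals of melatonin at 24 h (12.7 to 13.8) and of DMSO at 48 h (13.1 to 14.2) overlapped. The log2 fold change of ABCD3 at 24 h, -0.21, shrank to -0.05 under TPM. ABCD3 stayed lower under every scaling. ABCD2, its relative, had 0 reads in every library.

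All 4 soluble members were tested, and 0 were called at 2-fold at either time. The interval lay above 1 for 3 and below 1 for 0 at 24 h, and above 1 for 2 and below 1 for 1 at 48 h. Among all tested protein-coding genes it lay above 1 for 34.5% and 34.0% at these times, and below 1 for 23.2% and 36.5%. ABCF1, which takes part in translation initiation, had an FPKM of 41.5 under DMSO and 46.2 under melatonin at 24 h, and of 32.6 and 35.7 at 48 h. Its ratios were 1.11 (1.06 to 1.16) and 1.09 (1.04 to 1.15). ABCF3, a relative of the yeast activator of the Gcn2 kinase, had an FPKM of 9.59 and 10.97 at 24 h and of 8.48 and 9.51 at 48 h, with ratios of 1.14 (1.05 to 1.25) and 1.12 (1.03 to 1.22). ABCF2 had an FPKM of 11.8 and 14.2 at 24 h and of 11.1 in both libraries at 48 h. ABCE1, which splits ribosomes after termination, had an FPKM of 13.9 and 14.02 at 24 h and of 13.2 and 11.5 at 48 h. The spans of the overlapping genes OTUD4 and ANAPC10 run against it on the other strand.

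The 16 genes below an FPKM of 1 had few reads or none, except ABCC11 and ABCA3. No reads fell on ABCB5, ABCC12, ABCD2 or the sulfonylurea receptors ABCC8 and ABCC9, the regulatory subunits of ATP-sensitive potassium channels, in any library, and 3 reads, a one-sided limit for a count of 0, would be an FPKM of 0.0116 to 0.0262 in these genes. A further 9 had between 1 and 20 reads at most (ABCA4, ABCA6, ABCA8, ABCA9, ABCA10, ABCA12, ABCA13, ABCG1 and ABCG4). ABCC11, known as the earwax gene, had 51 reads in the DMSO and 18 in the melatonin library at 24 h, then 29 and 8 at 48 h. Its ratios were 0.319 (0.176 to 0.556) and 0.272 (0.108 to 0.611), and LONP2, which has 1591 to 1847 reads, overlaps its end on the other strand. ABCA3, the surfactant lipid transporter of the lung, had 24 and 52 reads at 24 h and 40 and 87 at 48 h, with ratios of 1.96 (1.19 to 3.33) and 2.15 (1.46 to 3.21).

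Time in culture was compared within each treatment. From 24 h to 48 h with DMSO 0 of 28 ABC genes were called at 2-fold, against 1.65% of all tested protein-coding genes higher and 2.78% lower. By that rule ABCA2 was the nearest to the threshold, at -0.997, with ABCC6 at -0.98 and ABCB8 at -0.92. The rule adds 1 to each FPKM, which shrinks the fold change. The plain ratios were 0.434 (0.398 to 0.472) for ABCA2, 0.485 (0.457 to 0.515) for ABCC6 and 0.372 (0.317 to 0.436) for ABCB8. With melatonin 0 ABC genes were called, against 0.496% higher and 0.429% lower. The interval lay above 1 for 6 genes (21.4%) and below 1 for 15 (53.6%) with DMSO, beside 35.4% and 38.0% of all tested protein-coding genes. With melatonin it also lay above 1 for 6 and below 1 for 15, beside 22.7% and 39.8%. The median log2 fold change was -0.12 with DMSO and -0.15 with melatonin, beside -0.01 and -0.06. Under TPM these medians of ABC genes turned to 0.35 and 0.07, beside 0.45 and 0.19. The direction held under every scaling for 13 of the 21 genes with DMSO and for 15 of the 21 with melatonin. Among those that held with DMSO, ABCA2, ABCA7, ABCB8, ABCB9, ABCB10, ABCC3 and ABCC6 were lower at 48 h and ABCB1, ABCB4, ABCC2, ABCC5, ABCD4 and ABCG5 higher. The 48 h treatment comparison and the DMSO time comparison share the DMSO library at 48 h.

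Other genes of these pathways came from lists of regulators, partners and carriers, which were chosen with earlier results of these data known. Of 17 nuclear receptors and other regulators of ABC genes 16 were tested. At 24 h 0 were called, against 0.191% of all tested protein-coding genes higher and 0.439% lower. The interval then lay above 1 for 6 and below 1 for 5, beside 34.5% and 23.2% of all tested protein-coding genes. At 48 h it lay above 1 for 8 and below 1 for 6, beside 34.0% and 36.5%. The 1 gene called at 48 h, lower, against 1.36% of all tested protein-coding genes, was NR1H4, the bile acid receptor FXR. Its FPKM was 12.4 under DMSO and 5.84 under melatonin at 24 h, and 14.3 and 4.33 at 48 h, with a log2 fold change of -0.97 and -1.52. RXRA, the partner of FXR and of the liver X receptors, was lower at both times, with ratios of 0.684 (0.645 to 0.726) and 0.660 (0.625 to 0.696). The liver X receptors NR1H3 and NR1H2, which drive ABCA1 and ABCG5, had an FPKM of 4.87 to 6.23 and 4.87 to 6.05. AHR, the dioxin receptor, and NFE2L2, the antioxidant regulator, were higher at both times, with ratios of 1.502 and 1.35 at 24 h and of 1.24 and 1.08 at 48 h.

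Of 15 partners of ABC proteins, 1 of 14 tested was called at 24 h, lower, against 0.439% of all tested protein-coding genes. The interval then lay above 1 for 6 and below 1 for 4, beside 34.5% and 23.2% of all tested protein-coding genes. At 48 h it lay above 1 for 2 and below 1 for 7 of 13, beside 34.0% and 36.5%. PDZK1, a scaffold that binds the tails of apical transporters such as ABCC2, was the partner called lower with melatonin at 24 h. Its FPKM was 9.69 under DMSO and 3.14 under melatonin, with a log2 fold change of -1.37. At 48 h its FPKM was 7.58 and 3.81. Then 0 of 13 tested partners were called, against 1.03% of all tested protein-coding genes higher and 1.36% lower. SLC9A3R1, another such scaffold, was lower at both times, at 121 and 97.1 and at 108 and 81.4. PEX19, which carries peroxisomal membrane proteins including ABCD members, was higher, at 5.67 and 8.05 and at 4.41 and 6.21. Of 11 carriers of other families that work beside ABC exporters in liver cells, 0 of 7 tested were called at 24 h. Of all tested protein-coding genes 0.191% were called higher and 0.439% lower then. At 48 h 2 of 5 were called, both lower, against 1.36% of all tested protein-coding genes called lower, and nothing is read from so short a list. The carriers called were SLC22A3, an organic cation carrier, at 21.8 and 9.91, and SLC51B, a subunit of the basolateral bile acid exporter, at 7.96 and 2.73. Among the carriers the interval lay above 1 for 0 and below 1 for 4 of 7 at 24 h, beside 34.5% and 23.2%. At 48 h it lay above 1 for 1 and below 1 for 4 of 5, beside 34.0% and 36.5%. The carrier above 1 was SLC47A1, at 14.4 and 17.9, with a ratio of 1.24 (1.17 to 1.32). TAP1 and TAP2, ABC proteins outside the naming rule that load peptides for antigen presentation, were not called at either time, and CFTR stayed below an FPKM of 1.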

How the data were processed

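The authors purified polyadenylated RNA from HepG2 cells, sequenced it paired-end and mapped it to hg38. The methods name MapSplice 2.0.1.6 and Cufflinks, and the submitters' processing notes name TopHat2 2.0.9, Bowtie2 2.0.6 and Cufflinks and Cuffdiff 2.1.1. The deposited values are FPKM per Ensembl gene with gene lengths, and the other columns, which hold names and positions, were used as such. Multiplying FPKM by length gave whole multiples (within 0.05 reads) of a fixed step per library for 100% of values above 0, and the reads so recovered were used for exact Poisson intervals and exact intervals of ratios (95%). The FPKM imply library sizes of 18357838 to 22205042, less than the reads on genes, and how they were set is not given in the sources used here.

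Fold changes used a pseudocount of 1, a minimum FPKM of 1 in either library and a 2-fold threshold. No p-value was computed, because each condition is 1 library. The members and lists were chosen with earlier results of these data known. Every member was counted. Those reported with an FPKM of at least 1 in any library are given by library and the rest by range or reads, and other genes come from fixed lists. The CCAAT box was added to the motifs after the promoters were seen. Some family members are counted but not reported here by name. Promoter windows are from RefSeq (GRCh38.p14), found for 34 of 44 members. Gene coordinates are those of the files, and in GENCODE 44 all 44 members lie on the same chromosome and 7 have the same start and end. The alternatives were a pseudocount of 0.1, no filter, a minimum FPKM of 5 or of 50 reads, TPM, scaling to all reads on genes or to those outside the mitochondrial genome, centring and a 1.5-fold threshold. The scripts were tested on simulated data. Python 3.11, numpy 2.4.6, pandas 2.3.3, scipy 1.17.1 and matplotlib 3.10.9 were used.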

Additional observations from a re-analysis of the deposited data

Results flagged for a closer look

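The log2 fold change of melatonin over DMSO had opposite signs at 24 h and at 48 h, with the interval of the ratio away from 1 at both times, for 2 ABC genes. ABCA2 was at -0.13 at 24 h and 0.20 at 48 h, and ABCC3 was at -0.11 and 0.41. The difference between the times was not tested, since each condition is 1 library, and the value at 24 h changed sign for both genes under TPM.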

How the results depend on the processing

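With a pseudocount of 0.1, 1 ABC gene was called at 24 h (ABCA7) and 3 from 24 h to 48 h with DMSO (ABCA2, ABCB8 and ABCC6). With a 1.5-fold threshold, 1 was called at 24 h (ABCA7), 2 at 48 h (ABCB8 and ABCB10), 7 between the DMSO libraries and 1 between the melatonin libraries (ABCA2). With a minimum FPKM of 5, 0 were called at 48 h, because ABCB8 was then not tested. Rescaled to TPM, 1 was called between the DMSO libraries (ABCB1), and the median log2 fold change was 0.17 at 24 h, 0.35 between the DMSO libraries and 0.0675 between the melatonin libraries. Under TPM ABCA2 turned to 0.0207 and ABCC3 to 0.0573 at 24 h. With mitochondrial reads left out of the library size, 1 was called between the DMSO libraries (ABCA2), and with the plain sum of reads the median there was 0.0661. Both of these were chosen after seeing the data: ABCC6 summed with its copies, given with that gene, and the share called over all gene types, which was 4.35% at 24 h, 5.72% at 48 h, 7.74% between the DMSO libraries and 4.15% between the melatonin libraries. With 1 library per condition no replicate could be left out. No paired analysis by replicate was possible because each group holds 1 library, and a fit of treatment with time as a second term was not run. Depth limits the 16 genes below an FPKM of 1, and the lack of replicates limits every comparison.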
